A study of Mus with 8 samples.

Results

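The 32 genes described here mark the endothelium, the single-cell lining of blood vessels. They were taken by symbol from a table of read counts for 31269 genes, and all 32 were found in it. All 32 also passed the filter on low counts, which left 17629 genes. RNA came from mouse uterus at pseudopregnancy day 6, when progesterone dominates after a sterile mating, in 8 libraries. By label, 4 are controls and 4 have a myometrial deficiency of PGR, the progesterone receptor, that is, in the muscle wall. The sources used here give no strain, age, control genotype or promoter behind any deletion. They also do not say whether each library was a separate animal, so p-values reflect spread among libraries, which may be technical. The labels place the tissue around implantation sites, although pseudopregnancy involves no embryo.

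Endothelial cells hold to each other through VE-cadherin (Cdh5) and tight junctions, and their identity is kept by transcription factors of the ETS family and the SOXF group. Vessel growth and rest are balanced by TIE, apelin, sphingosine phosphate and endoglin receptors. Endothelium also stores von Willebrand factor and P-selectin for rapid release, and in leaky vessels it forms fenestrae spanned by PLVAP. In the uterus vessels become more permeable and grow around the time of implantation under ovarian hormones.

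Total counts per library ran from 70296369 to 72364750. The targeted gene, Pgr, averaged 156.5 ± 22.8 CPM in controls against 176.9 ± 12.1 CPM in the other group (SD, n = 4 each), with an edgeR adjusted p of 0.338. CPM are read counts relative to the TMM-scaled library total. The group is therefore called "labelled deficient", and every direction rests on that label. Because whole tissue was measured, fewer endothelial cells and less RNA per cell cannot be told apart. Libraries 2 and 3 labelled deficient stood apart from the other libraries in several gene lists, and values without them are given beside many of the results and, for each change of sign among the 32 genes, in the closing section.

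Across the group comparison most endothelial genes did not separate, while their levels within the group labelled deficient were widely scattered. Library 1 labelled deficient held the highest level of 16 of the 32 genes, where it did so for 12.1% of all genes tested. Library 2 labelled deficient held the lowest level of 19, where it did so for 28.1% of all genes. Each gene was centred on its mean log2 CPM over the 8 libraries and the median was taken over the 32 genes. This median was 0.33, -0.48, -0.33 and 0.16 in libraries 1 to 4 labelled deficient, and 0.22, 0.02, 0.12 and -0.06 in control libraries 1 to 4. The group labelled deficient thus held the highest and the 2 lowest libraries, with the controls between them.

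**Figure D1:**
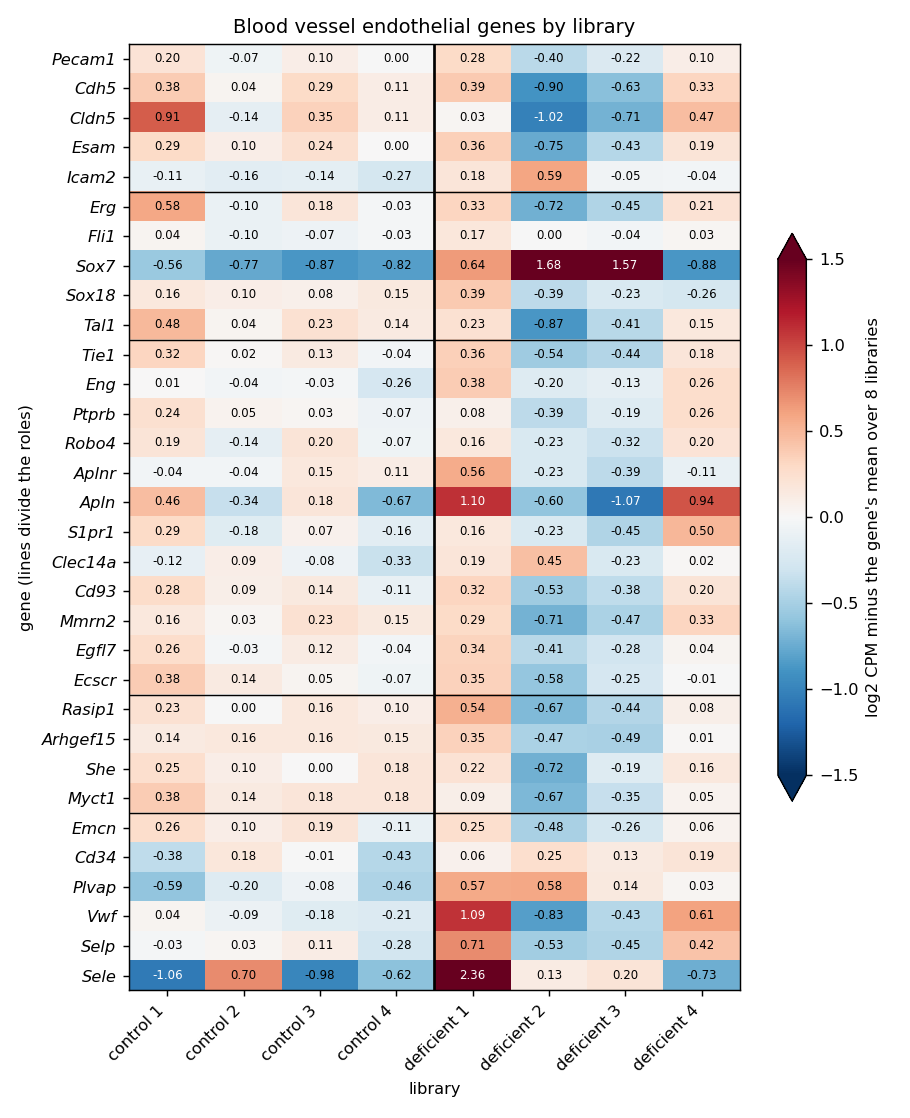
Log2 CPM of each of the 32 genes (rows, by role) in each of the 8 libraries (columns), centred on the gene's mean over the libraries. Libraries 2 and 3 labelled deficient are below the gene's mean for most rows, with Sox7, Cd34 and Plvap among the exceptions, and library 1 labelled deficient is above it for all 32.

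Set against the controls one library at a time, the 4 libraries labelled deficient went different ways. Library 1 lay above all 4 controls for 21 of the 32 genes and below them for 1, where the shares over all genes were 29.9% and 29.7%. Library 2 lay below all controls for 23 and above for 5, against 37.8% and 37.7% of all genes. Library 3 lay below for 24 and above for 3, against 29.7% and 31.6%. Library 4 lay above for 11 and below for 5 and within the control range for 16, against 24.62% above and 24.95% below over all genes.

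The spread within groups followed. The SD of log2 CPM was larger among the libraries labelled deficient than among the controls for 31 of the 32 genes, where the same held for 71.4% of all genes tested. Its median over the 32 genes was 0.418 in the group labelled deficient and 0.150 in the controls, against 0.235 and 0.154 over all genes. The exception was Cd34. Without libraries 2 and 3 labelled deficient the count was 16 of 32. That SD is over libraries 1 and 4 alone, after the libraries with the lowest medians were dropped, so the fall is partly built in. The share over all genes was not computed for this setting.

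**Figure D2:**
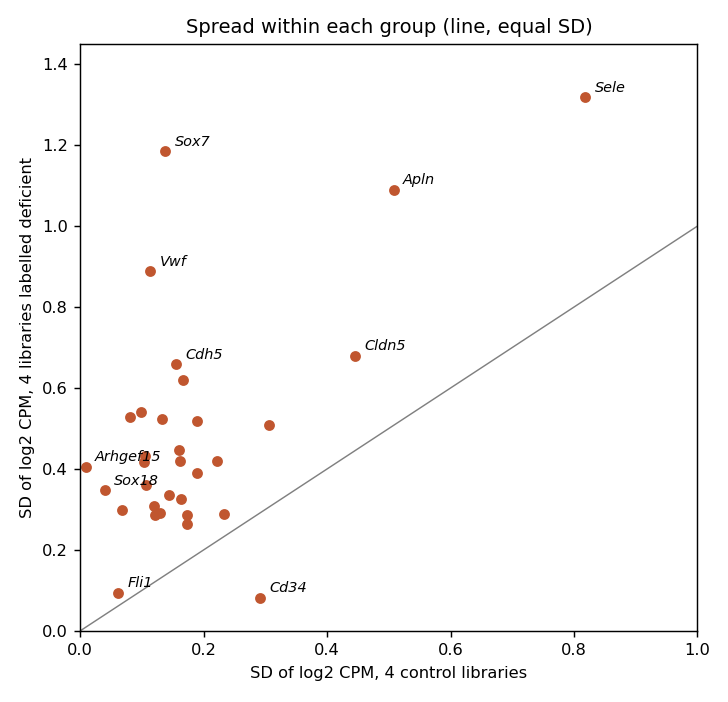
SD of log2 CPM among the 4 libraries labelled deficient (vertical axis) against the SD among the 4 controls (horizontal axis) for the 32 genes; the line marks equal SD. All points but Cd34 lie above the line, with Sox7 and Vwf farthest above it.

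Between the groups, edgeR's quasi-likelihood test called 0 of the 32 genes, as it called 0% of all genes tested. At an unadjusted p under 0.05 stood 3 genes with higher values in the libraries labelled deficient (Sox7, Plvap and Icam2), against 13.0% of all genes, and 1 with lower values (Myct1), against 11.8%. These shares are no larger than the background. The 4 libraries of each group did not overlap for Plvap and Icam2, higher in the group labelled deficient (7.61% of all genes), and for Myct1, lower (8.66%). Log2 differences, labelled deficient over control, were negative for 20 of the 32, where 48.0% of all genes were negative, and their median was -0.12 against 0.01 over all genes. That median turned to 0.15 without libraries 2 and 3 labelled deficient, when 4 of the 32 differences were negative. These libraries had the lowest medians over the 32 genes, so leaving them out raises most of the differences by construction. DESeq2 called 2 of the 32, Sox7 and Plvap, both higher (7.41% of all genes called higher), and 0 lower (6.70%), and limma-voom called 0 of them (0.0113% of all genes).

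**Figure D3:**
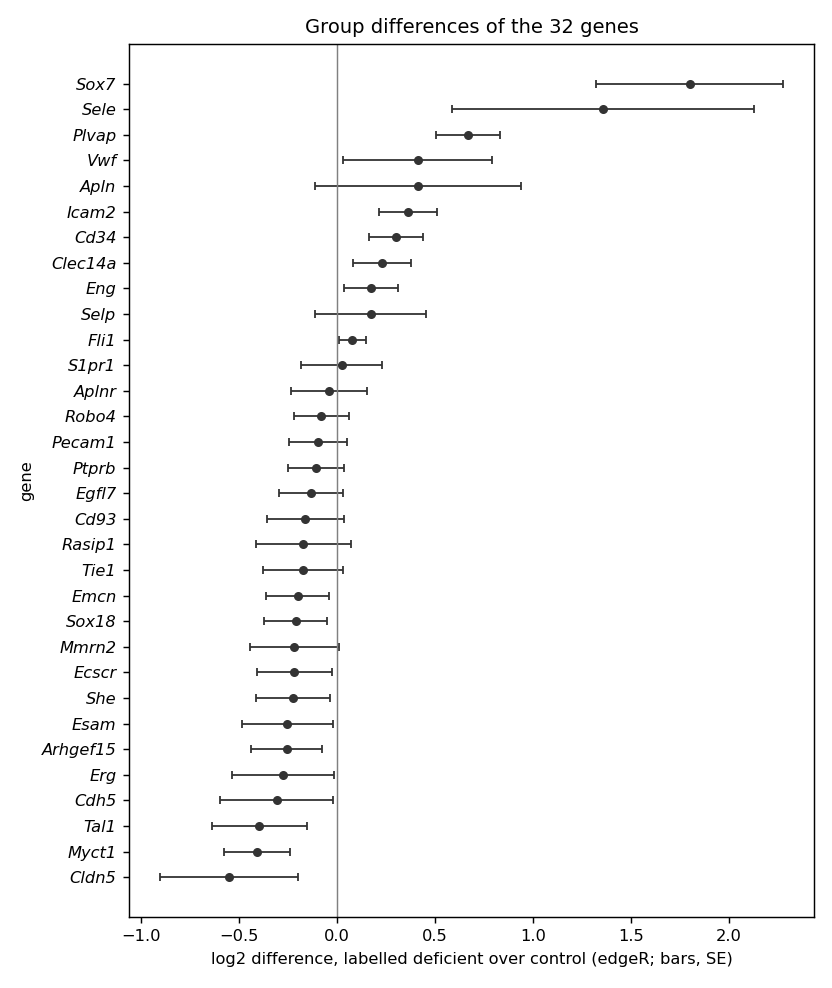
Log2 difference of each of the 32 genes, labelled deficient over control, from edgeR; bars are the SE. Most differences lie between -0.55 and 0.41, and Sox7 at 1.80, Sele at 1.36 and Plvap at 0.67 lie apart.

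Of the 5 junction and adhesion genes 4 had negative differences. Cdh5 encodes VE-cadherin, the adherens junction protein of endothelium, on chromosome 8 from 104101613 to 104144504 (GRCm38.p6, the assembly that mm10 names). It measured 357, 283, 336 and 298 CPM in control libraries 1 to 4 and 360.2, 147, 177 and 345 CPM in libraries 1 to 4 labelled deficient. Libraries 1 and 4 labelled deficient sat in or just above the control range, and libraries 2 and 3 were far below every control. The log2 difference was -0.31 ± 0.29 (SE; edgeR adjusted p = 0.525), and it was 0.15 without libraries 2 and 3. Pecam1, the platelet-endothelial adhesion molecule, measured 288, 238, 268 and 249 CPM in the controls against 304, 189, 214 and 267 CPM in the other group. Libraries 2 and 3 labelled deficient were again the lowest, within a narrower range, and the log2 difference was -0.10 ± 0.15 (adjusted p = 0.699). Esam, a junctional adhesion molecule, ran from 90.5 to 110.5 CPM in controls and from 53.5 to 115.7 CPM in the other group. Cldn5, the main claudin of endothelial tight junctions, ran from 33.2 to 68.5 CPM and from 18.1 to 50.5 CPM, with a difference of -0.55 ± 0.35 (adjusted p = 0.354). This was -0.32 without control library 1 and -0.09 without libraries 2 and 3 labelled deficient.

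Icam2, which encodes an adhesion molecule for leukocytes that is present on resting endothelium and on blood cells, did not share this order. It lies on chromosome 11 from 106377656 to 106388139. Its levels were 17.1, 16.6, 16.7 and 15.4 CPM in the controls, against 21.0, 27.8, 17.8 and 17.9 CPM in libraries 1 to 4 labelled deficient. All 4 of the latter lay above all controls, by a small margin in libraries 3 and 4, and with library totals as the scaling the groups overlapped. The log2 difference was 0.36 ± 0.15 (edgeR adjusted p = 0.183). General markers of blood cells were also higher in the group labelled deficient. All 8 of 8 (Ptprc, Coro1a, Laptm5, Cd53, Lcp1, Vav1, Spi1 and Cd52) had positive differences with an unadjusted p under 0.05 (13.0% of all genes), and edgeR called 0 after adjustment. DESeq2 called 6 of the 8 higher (7.41% of all genes), and the groups did not overlap for 6 (7.61% of all genes). Their summed level was 466 to 642 CPM in the controls and 721 to 989 CPM in the group labelled deficient, with the highest centred median, 0.55, in library 2, where Icam2 was also highest. The remaining libraries were ordered differently. The blood cell median was 0.28 in library 3 and 0.09 in library 1 labelled deficient, where Icam2 was at 17.8 and 21.0 CPM. The part of blood cells in the Icam2 result was not tested.

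The transcription factors split between Sox7 and the rest. Sox7, a SOXF factor of early endothelium that is also known from the endoderm of the embryo, lies on chromosome 14 from 63943706 to 63950732. It measured 20.5, 17.7, 16.5 and 17.1 CPM in control libraries 1 to 4 and 47.0, 97.2, 89.9 and 16.4 CPM in libraries 1 to 4 labelled deficient. Libraries 1 to 3 labelled deficient were well above every control, while library 4 was below the lowest of them. The log2 difference was 1.80 ± 0.48, or 3.48-fold (95% interval 1.63 to 7.43). The edgeR adjusted p was 0.101, the DESeq2 adjusted p was 0.00222 and the limma-voom adjusted p was 0.187. Without libraries 2 and 3 labelled deficient the difference was 0.82 (edgeR adjusted p = 0.279). Sox7 was highest in the libraries where most endothelial genes were lowest.

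Epithelial markers were also high in libraries 2 and 3 labelled deficient. Of 9 such markers 7 had positive differences (median 0.63), and 3 had an unadjusted p under 0.05 with higher values (13.0% of all genes). Without libraries 2 and 3 labelled deficient 5 of the 9 were positive and the median was 0.03. Their centred median reached 0.95 in library 2 and 0.46 in library 3 but was -0.17 in library 1 and -0.11 in library 4, against -0.43 to -0.05 in the controls. Their summed level was 1025 to 1250.2 CPM in controls against 1094 to 2580.0 CPM in the other group. In library 1, where Sox7 was also high, they were not. Their part in the Sox7 result was not tested.

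Sox18, the SOXF relative of Sox7 that drives vessel and lymphatic development, went another way. It was nearly constant in the controls, at 65.4, 62.6, 61.7 and 64.8 CPM, and measured 76.5, 44.6, 50.0 and 48.9 CPM in libraries 1 to 4 labelled deficient. Library 1 was above all controls and the other 3 below all of them (log2 difference -0.21 ± 0.16, edgeR adjusted p = 0.433, and -0.017 without libraries 2 and 3). Erg, the ETS factor that maintains endothelial identity, measured 42.9, 26.8, 32.5 and 28.1 CPM in the controls, against 36.0, 17.4, 21.0 and 33.3 CPM in the other group. Libraries 2 and 3 were again the lowest (-0.27 ± 0.26, adjusted p = 0.525). Tal1, a factor of blood and vessel progenitors, ran from 13.8 to 18.8 CPM in controls and from 7.31 to 15.8 CPM in the other group, with a difference of -0.39 ± 0.24 that was -0.038 without libraries 2 and 3. Fli1, an ETS factor of endothelium and blood cells, was the steadiest of the 5 in the group labelled deficient, at 40.3 to 44.4 CPM in the controls and 41.8 to 48.6 CPM in the other group (0.08 ± 0.07, adjusted p = 0.483).

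Of the receptors, ligands and their partners, 8 of 12 had negative differences and none had an unadjusted p under 0.05 (24.8% of all genes). Aplnr, the apelin receptor of sprouting and venous endothelium, measured 136, 136, 155 and 151 CPM in the controls, against 206, 119, 107 and 129 CPM in libraries 1 to 4 labelled deficient. Library 1 was above every control and the other 3 below every control, so that the mean difference was near 0 (-0.04 ± 0.19, edgeR adjusted p = 0.909). Its ligand Apln was scarce, at 1.69, 0.959, 1.40 and 0.762 CPM in the controls, against 2.65, 0.801, 0.568 and 2.38 CPM in the other group, from 40 to 192 reads per library. Libraries 1 and 4 labelled deficient exceeded all controls and library 3 was below all of them (0.41 ± 0.53, adjusted p = 0.642). The difference was 0.06 without library 1 and 1.07 without libraries 2 and 3.

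Several other receptors had the same lowest libraries as Cdh5. Tie1, the orphan receptor that modulates angiopoietin signalling, ran from 121 to 156 CPM in controls and from 85.5 to 159.8 CPM in the other group. Ptprb, the phosphatase that restrains TIE2, ran from 106 to 131 CPM and from 84.8 to 133.7 CPM. Robo4, a guidance receptor that stabilises vessels, ran from 60.8 to 76.7 CPM and from 53.7 to 77.1 CPM. S1pr1, the sphingosine phosphate receptor that tightens the barrier, ran from 60.2 to 83.5 CPM and from 50.0 to 96.4 CPM. For these 4 genes libraries 2 and 3 labelled deficient were the 2 lowest of all 8.

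Cd93 and Clec14a encode related C-type lectin receptors, and Mmrn2 their matrix ligand. Cd93 ran from 232 to 303 CPM in controls and from 173 to 312 CPM in the other group, and Mmrn2 from 88.1 to 100.9 CPM and from 52.7 to 108.0 CPM, both with libraries 2 and 3 lowest. Clec14a did not follow. It was highest in library 2 labelled deficient, at 94.8 CPM, and lay between 55.1 and 73.9 CPM in the controls (0.23 ± 0.15, edgeR adjusted p = 0.361). Eng, the endoglin co-receptor for BMP9 and TGF-beta, was at 137 to 164 CPM in controls against 143 to 213 CPM in the other group (0.18 ± 0.14, adjusted p = 0.452). The RefSeq span of Eng overlaps Fpgs, whose difference was 0.18 ± 0.07. Egfl7, a secreted vessel factor, ran from 115 to 142 CPM and from 88.8 to 149.1 CPM, and Ecscr, an endothelial surface protein, from 35.3 to 48.0 CPM and from 24.8 to 47.0 CPM.

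All 4 intracellular and membrane partners had negative differences. Myct1, a small endothelial membrane protein, lies on chromosome 10 from 5593728 to 5606789 and was the gene of the 32 whose groups separated downward. It measured 31.6, 26.8, 27.6 and 27.6 CPM in the controls, against 25.9, 15.3, 19.1 and 25.2 CPM in libraries 1 to 4 labelled deficient. The 2 groups came within 1 CPM of each other, at control library 2 and library 1 labelled deficient. The log2 difference was -0.41 ± 0.17, or 0.753-fold (95% interval 0.576 to 0.985), with an edgeR adjusted p of 0.184. Without libraries 2 and 3 labelled deficient it was -0.15. Arhgef15, an intracellular signalling protein, stayed between 57.8 and 58.5 CPM in all 4 controls and ran from 37.4 to 66.8 CPM in the other group. Rasip1, a Rap1 effector needed for vessel lumens, ran from 42.9 to 50.4 CPM and from 27.1 to 62.5 CPM, and She, an adaptor protein, from 33.7 to 40.0 CPM and from 20.4 to 39.1 CPM.

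**Figure D4:**
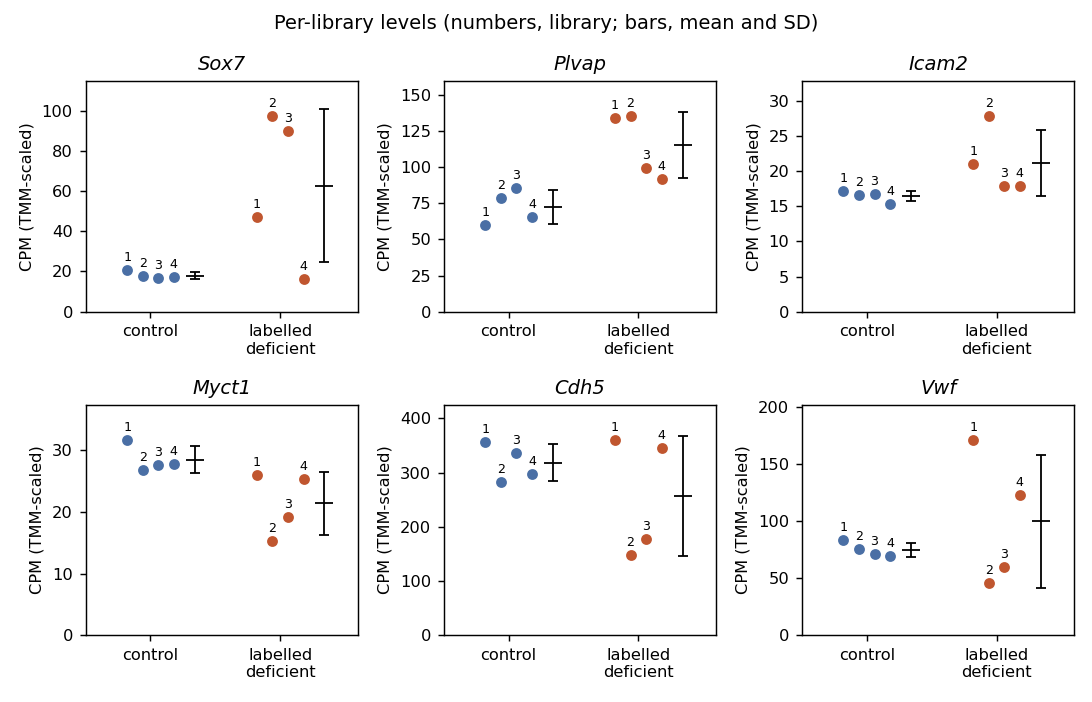
CPM of Sox7, Plvap, Icam2, Myct1, Cdh5 and Vwf in each library, numbered 1 to 4 within its group; the bar beside each group is its mean and SD. The groups do not overlap for Plvap, Icam2 and Myct1, while for Cdh5 and Vwf libraries 1 and 4 labelled deficient lie far above libraries 2 and 3.

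Of the 6 genes of the luminal surface and of stored proteins 5 had positive differences (median 0.36). The median was 0.12 without library 1 labelled deficient, where Selp turned to -0.08, and 0.63 without libraries 2 and 3. Plvap, which forms the diaphragms of fenestrae and caveolae and marks permeable vessels, lies on chromosome 8 from 71497753 to 71511806. It measured 60.0, 78.7, 85.2 and 65.5 CPM in the controls, against 133.9, 135.1, 99.5 and 91.8 CPM in libraries 1 to 4 labelled deficient. All 4 of the latter were above all controls. The log2 difference was 0.67 ± 0.16, or 1.59-fold (95% interval 1.23 to 2.06). The edgeR adjusted p was 0.0959, the DESeq2 adjusted p was 0.00504 and the limma-voom adjusted p was 0.0997. The difference was 0.65 without libraries 2 and 3 labelled deficient (edgeR adjusted p = 0.169). The gene's RefSeq span overlaps Gtpbp3, whose difference was -0.15 ± 0.09.

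Plvap also separated the groups when set against general endothelial genes in the same library. Its log2 CPM minus the mean log2 CPM of Cdh5, Pecam1 and Tie1 was -2.07, -1.37, -1.44 and -1.66 in the controls and -0.96, 0.02, -0.61 and -1.36 in libraries 1 to 4 labelled deficient. All of the latter were above all controls, though library 4 by a small margin, and the mean difference was 0.91. It was 0.48 without libraries 2 and 3, in which Cdh5, Pecam1 and Tie1 were lowest. Of the 6 genes set against these 3, Plvap alone separated the groups. Mean differences were 0.16 for Aplnr, 0.33 for Selp, 0.43 for Apln, 0.47 for Vwf and 1.23 for Sele. This is a description with no test.

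Vwf, von Willebrand factor, measured 83.1, 75.8, 71.0 and 69.9 CPM in the controls, against 171.1, 45.5, 59.7 and 122.8 CPM in the other group. Libraries 1 and 4 labelled deficient were above every control and libraries 2 and 3 below every control, with a 3.76-fold range in the group against 1.19-fold in the controls. The log2 difference was 0.41 ± 0.38 (edgeR adjusted p = 0.515). It was 0.02 when library 1 of this group was left out and 0.98 when libraries 2 and 3 were. Selp, the P-selectin stored with it, had the same libraries above and below the controls, at 12.7, 13.2, 14.0 and 10.7 CPM in the controls, against 21.1, 8.96, 9.46 and 17.3 CPM in the other group (0.17 ± 0.28, adjusted p = 0.726, and 0.61 without libraries 2 and 3). Both genes are also known from platelets. Of 9 platelet markers 5 passed the filter, 3 with positive differences, and their summed level, most of it Itgb3, was 134 to 213 CPM in controls against 175 to 285 CPM in the other group. Their centred median was highest in library 2 labelled deficient, at 0.60, and their part in the values of Vwf and Selp was not tested.

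Sele, the E-selectin that inflamed endothelium makes to catch leukocytes, was close to the limit of detection. It had 13, 48, 14 and 18 reads in the controls and 159, 30, 33 and 17 reads in libraries 1 to 4 labelled deficient. Library 1 labelled deficient alone stood above the control range, and the difference of 1.36 ± 0.77 (edgeR adjusted p = 0.299) was 0.23 without it. Emcn, an endothelial sialomucin of veins and capillaries, measured 81.0, 72.3, 77.4 and 62.5 CPM in the controls, against 80.3, 48.5, 56.3 and 70.4 CPM in the other group, with libraries 2 and 3 lowest (-0.20 ± 0.16, adjusted p = 0.457). Cd34, a surface sialomucin of endothelium that fibroblasts and blood progenitors also carry, measured 360.0, 527, 464 and 346 CPM in the controls, against 488, 556, 513 and 534 CPM in the other group. It was the gene with the smaller spread in the group labelled deficient, and control library 2 overlapped that group (0.30 ± 0.14, adjusted p = 0.219). Among 8 stromal fibroblast markers 5 had positive differences, with a summed level of 5534 to 7142 CPM in controls against 7350.4 to 8828 CPM in the other group, and their part in the Cd34 value was not tested.

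Other genes of vessels came from lists that share no gene with the 32. The pan-endothelial and arterial lists had medians of the same sign as the 32 genes in every library labelled deficient. So did the tip cell and sprouting list and the activation and clotting list. The venous, capillary and transcription factor lists did not. Arterial medians were 0.28, -0.37, -0.17 and 0.25 in libraries 1 to 4 labelled deficient. Of 18 other pan-endothelial genes 10 had negative differences (median -0.08), and 0 passed adjustment. An unadjusted p under 0.05 came with higher values for 3 (13.0% of all genes) and with a lower value for 1 (11.8%). Their centred median was 0.25, -0.27, -0.10 and 0.09 in libraries 1 to 4 labelled deficient and -0.04 to 0.17 in the controls. Nostrin, which traffics the endothelial nitric oxide synthase, and Ramp2, the adrenomedullin co-receptor, were at 0.57 ± 0.14 and 0.38 ± 0.11. Neither overlapped between groups (7.61% of all genes higher). Their edgeR adjusted p was 0.0987 and 0.107, and their DESeq2 adjusted p 0.00193 and 0.0224. Tspan18, the gene with the lower value, was at -0.43 ± 0.17 with overlapping groups (edgeR adjusted p = 0.179, DESeq2 adjusted p = 0.118). Of 15 other endothelial transcription factors that passed the filter 11 were positive (median 0.09). An unadjusted p under 0.05 came with higher values for 4, Mecom, Elk3, Lyl1 and Klf4 (13.0% of all genes), and with a lower value for 1 (11.8%). Lyl1, a relative of Tal1 in blood and vessel cells, was at 0.25 ± 0.10 with no overlap between groups (edgeR adjusted p = 0.167, DESeq2 adjusted p = 0.0453). Over all genes DESeq2 called 7.41% higher and 6.70% lower. Klf2, the factor that responds to blood flow, was at -0.53 ± 0.19 (edgeR adjusted p = 0.147, DESeq2 adjusted p = 0.0634). Its groups did not overlap (8.66% of all genes lower). Without libraries 2 and 3 labelled deficient the median was 0.15 for the pan-endothelial list and 0.14 for the transcription factors.

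By vessel type, 7 of 12 arterial genes (median -0.10), 3 of 6 venous genes (median -0.03) and 2 of 7 capillary genes (median 0.23) had negative differences. In the arterial list Notch1 and Efnb2, the ephrin-B2 ligand, had higher values at an unadjusted p under 0.05 (13.0% of all genes). Their differences were 0.32 ± 0.09 and 0.55 ± 0.16 (edgeR adjusted p = 0.102 and 0.113, DESeq2 adjusted p = 0.0168 and 0.0236). In the venous list Nrp2, a semaphorin and VEGF-C receptor, had a lower value at that threshold (11.8% of all genes). Its difference was -0.37 ± 0.15 (edgeR adjusted p = 0.186, DESeq2 adjusted p = 0.129). In the capillary list Car4, a carbonic anhydrase, was at 27.8 ± 7.89 CPM in controls against 5.59 ± 5.16 CPM in the other group (SD, n = 4). The groups did not overlap, and the log2 difference was -2.31 ± 0.90 (edgeR adjusted p = 0.166, DESeq2 adjusted p = 0.0879). Library 2 labelled deficient was at 0.178 CPM and the others of its group at 2.52 to 11.4 CPM. Most of the list went the other way, with Cd36 at 0.85 ± 0.37 and Gpihbp1 at 0.61 ± 0.34 (edgeR adjusted p = 0.203 and 0.293). Without libraries 2 and 3 labelled deficient the medians turned to 0.24 for arterial, 0.039 for venous and -0.080 for capillary genes. The list of tip cell and sprouting genes had 5 of 9 negative. At an unadjusted p under 0.05, 3 were lower and 1 was higher (11.8% and 13.0% of all genes), with 0 past adjustment. Angpt2, the angiopoietin that loosens vessels for remodelling, was at 64.9 ± 50.1 CPM in controls against 15.6 ± 4.23 CPM in the other group (SD, n = 4). The groups did not overlap (8.66% of all genes lower). The log2 difference was -2.06 ± 0.49 (edgeR adjusted p = 0.0916, DESeq2 adjusted p = 0.00048). Control library 4 was at 139.7 CPM and the other controls at 32.6 to 46.3 CPM, and the difference was -1.37 without it (adjusted p = 0.252). Igfbp3 was also lower with no overlap, at 661 ± 256 CPM in controls against 193 ± 144 CPM in the other group (SD, n = 4). Its log2 difference was -1.78 ± 0.55 (edgeR adjusted p = 0.119, DESeq2 adjusted p = 0.00877). Nrp1, the gene with the higher value, was at 0.45 ± 0.17 (edgeR adjusted p = 0.160, DESeq2 adjusted p = 0.0832). Endothelial activation and clotting genes had 5 of 9 negative, and 0 had an unadjusted p under 0.05 (24.8% of all genes).

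Pericytes and mural cells wrap the endothelium. Their markers had 9 of 10 negative differences (median -0.16), of which 1, Mcam, had an unadjusted p under 0.05 (11.8% of all genes lower). Its difference was -0.57 ± 0.14 (edgeR adjusted p = 0.0968, DESeq2 adjusted p = 0.00638). Mcam is also made by endothelium. The mural median was -0.63 and -0.25 in libraries 2 and 3 labelled deficient and between 0.09 and 0.16 in the other 6 libraries. Their summed level was 987 to 1109 CPM in controls against 661 to 1017 CPM in the other group. Libraries 2 and 3 labelled deficient were thus low for mural as well as endothelial genes. The mural median difference was 0.06 without them.

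Lymphatic endothelium also expresses many of the 32 genes. All 7 tested markers had negative differences (median -0.46), with 1 at an unadjusted p under 0.05, Pdpn (11.8% of all genes lower). Its difference was -0.36 ± 0.07 (edgeR adjusted p = 0.0906, DESeq2 adjusted p = 2.15e-05). Pdpn ran from 37.2 to 39.4 CPM in controls and from 27.85 to 32.2 CPM in the other group, with no overlap. Unlike the list median, Pdpn was not raised in control library 1 (38.5 CPM). The lymphatic median was highest in control library 1, at 0.84, and -0.15, -0.41, -0.27 and 0.05 in libraries 1 to 4 labelled deficient, so that libraries 2 and 3 were again the lowest. Without them the median difference was -0.29, and without control library 1 alone it was -0.21. Control libraries 2 and 3, at -0.15 and -0.11, were near library 1 labelled deficient. Summed lymphatic levels were 197 to 338 CPM in controls against 152 to 209 CPM in the other group. Of the 32 genes 7 were also highest in control library 1 (Cldn5, Erg, Tal1, Ecscr, She, Myct1 and Emcn), where 12.2% of all genes were highest. The part of lymphatic vessels in the values of these genes was not tested. Smooth muscle markers had 8 of 8 negative differences (median -0.24), with medians of -0.22, -0.05, -0.01 and -0.17 in libraries 1 to 4 labelled deficient. Control library 1, at -0.21, was as low, while control libraries 2 to 4 were at 0.29, 0.04 and 0.36.

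**Figure D5:**
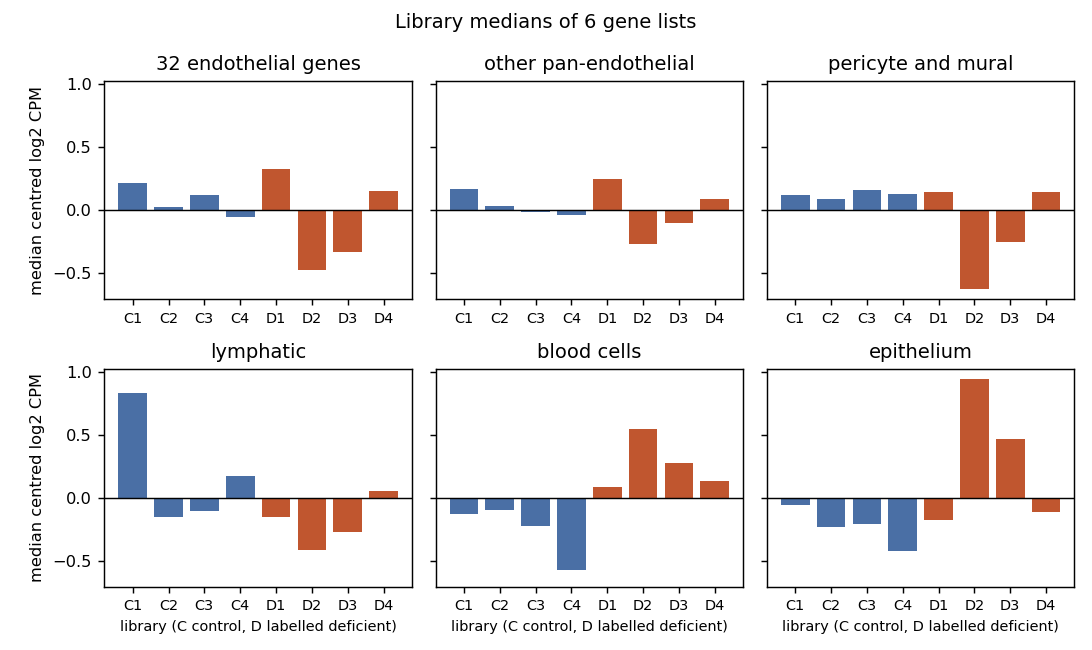
Median centred log2 CPM of 6 gene lists in each of the 8 libraries (C1 to C4 controls, D1 to D4 labelled deficient). Endothelial, mural and lymphatic medians are lowest in D2 and D3, where blood cell and epithelial medians are highest, and the lymphatic median is highest in C1.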

How the data were processed

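The authors deposited 1 table of whole-number counts per gene symbol, without normalization. Per the submitters' processing notes, HISAT2 2.2.1, HTSeq 0.10.0 and mm10 were used. The sources used here give neither annotation nor strand settings, and 13 of the 32 genes overlap another RefSeq gene (GRCm38.p6), so reads of such pairs may not be told apart. Columns were matched to sample titles. No library was a copy of another, as the closest pair had a chi-square of 46.5 per degree of freedom.

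Genes were filtered with filterByExpr, scaled by TMM and tested with edgeR 4.0.16 (glmQLFit and glmQLFTest, R 4.3.3), with Benjamini-Hochberg adjustment over 17629 genes at 0.05. The SE is the log2 difference over the root of F. Log2 CPM used a prior count of 2. DESeq2 1.42.0, limma-voom 3.58.1, other scalings, other filters, robust=TRUE, a replicate block and left-out libraries were alternatives. The script was tested on simulated counts.

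The 32 genes and all lists were chosen with earlier results of these data known. All 32 are named. Genes with no overlap or an unadjusted p under 0.05, and 9 set genes (Pecam1, Cdh5, Erg, Emcn, Vwf, Apln, Aplnr, Selp, Sele), are given in every library. Sox18, the values of lists without libraries, and Lyl1 were added after its values were seen. Of each further list, single genes given with values come from the 3 smallest p-values, apart from Lyl1. Further genes, such as Klf4 and the blood cell markers, are only named. Promoter sequences were not analysed here. Older symbols from RefSeq were used for 3 genes. The red cell list (5 of 7 genes tested, 3 negative, median -0.04) is given here only.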

Additional observations from a re-analysis of the deposited data

Results flagged for a closer look

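In groups of 4 libraries, a library was singled out where its gap to the nearest other exceeded, as a share of the group's range, Dixon's 95% critical value. Of 64 groups (32 genes in 2 groups) 3 did so, and chance flags about 1 in 20 groups. Sox18 in library 1 labelled deficient was at 76.5 CPM, against 44.6 to 50.0 CPM in the other 3 of its group. Sele in library 1 labelled deficient was at 2.198 CPM, against 0.233 to 0.468 CPM in the others. Sele in control library 2 was at 0.677 CPM, against 0.179 to 0.254 CPM in the others.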

How the results depend on the processing

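Over all genes edgeR called 0, against 4372 at an unadjusted p under 0.05, and DESeq2 called 2488, limma-voom 2 and the replicate block 23; leaving out 1 library gave 0 to 2. Genes of the 32 at an unadjusted p under 0.05 numbered 4 (24.8% of all genes), and 2 to 8 on leaving out 1 library. They were 8 without library 1 labelled deficient (24.6% of all genes). They were 2 without control library 1, 3 or 4 or library 2 labelled deficient (16.2% to 20% of all genes). Their median difference ran from -0.29 to -0.0098 on leaving out 1 library, lowest without library 1 and highest without library 2 labelled deficient, and was 0.15 without libraries 2 and 3. Genes with no overlap numbered 3 (16.3% of all genes), then 3 to 6 on leaving out 1 library (17.7% to 27.7% of all genes). They were 6 where library 1 labelled deficient was dropped (21.2% of all genes) and 8 without libraries 2 and 3 (29.8%). With library totals as the scaling they were 2 (15.9%), where Icam2 overlapped. The count with the larger SD in the group labelled deficient was 29 to 31 on leaving out 1 library. It was 16 without libraries 2 and 3, where the SD is over libraries 1 and 4 alone. The causes were not tested, and counts without overlap rise with fewer libraries by construction. Libraries 2 and 3 labelled deficient had the lowest medians over the 32 genes. Leaving them out therefore raises most of the differences by construction, and the changes of sign below are to be read with that limit.

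Without libraries 2 and 3 labelled deficient 16 genes changed sign: Pecam1 to 0.14, Cdh5 to 0.15, Esam to 0.12, Erg to 0.093, Tie1 to 0.16, Ptprb to 0.11, Robo4 to 0.13, Aplnr to 0.22, Cd93 to 0.16, Mmrn2 to 0.17, Egfl7 to 0.12, Ecscr to 0.051, Rasip1 to 0.21, Arhgef15 to 0.046, She to 0.057 and Emcn to 0.044. On leaving out 1 library, differences crossed 0 for Pecam1 (-0.22 to 0.010), Robo4 (-0.17 to 0.00079), Aplnr (-0.28 to 0.065), S1pr1 (-0.17 to 0.15) and Selp (-0.082 to 0.35). S1pr1 was at -0.011 with library totals, -0.0076 with limma-voom and -0.010 with the replicate block. In all, 28 of 575 values changed sign, and 14 of 32 genes kept their sign under every alternative run. Sox7 and Plvap passed with DESeq2.

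Replicate numbers are shared between groups by the labels, but same-numbered libraries did not deviate together throughout (correlations of 0.20, 0.24, -0.01 and -0.08), so the numbers were not taken as pairs. With the replicate block 0 of the 32 genes were called, 5 had an unadjusted p under 0.05 (24.6% of all genes) and the median difference was -0.14. At 13 to 159 reads per library, depth limits Sele.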
